A study of Caenorhabditis elegans with 7 samples.

Results

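The astacins are a family of secreted zinc metalloproteases, and their transcripts were followed here in whole L4 larvae of Caenorhabditis elegans. Members were all genes whose symbol in the WBcel235 annotation is nas- followed by a number, together with dpy-31, hch-1 and toh-1. These were 40 genes under 39 symbols, because nas-2 names a pair of genes on chromosome V. Of the 40 genes, 27 had a deposited 3′ UTR entry, out of 27909 genes with an entry in all. The other 13 were not analysed here: both nas-2 genes, nas-5, nas-10, nas-13, nas-14, nas-16, nas-17, nas-18, nas-19, nas-24, nas-28 and nas-32. Chromosome V holds 14 of the 40 genes but only 6 of the 27 with an entry, and chromosome X holds 9 and 7.

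The samples come from SLAM-ITseq, a method in which cells that express uracil phosphoribosyltransferase take up 4-thiouracil into new RNA. Alkylation with iodoacetamide then makes the sequencer read C in place of T at such sites (T>C). The control strain was BN1158, with no FLP recombinase (4 libraries), and the hypodermal strain was BN1190, in which the dpy-7 promoter drives FLP in the hypodermis (3 libraries). All animals of both strains received 4-thiouracil: synchronized larvae, about 350 on each of 3 plates per replicate, grew for 28 h at 20 °C and then stayed with the drug for a total of 17 h. No other allele of either strain is named in the labels. Each library is a 3′ end library of RNA from whole animals, so fewer cells of a type and less RNA per cell cannot be told apart. The labels do not say whether replicates were separate cultures, so the tests speak only of differences among the libraries at hand, whose spread may be technical.

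Astacins are made with a prodomain that keeps the zinc site shut until it is removed. In nematodes several of them act on the extracellular matrix: they trim procollagens, loosen the old cuticle at each moult and help the larva leave the eggshell. The cuticle of the body is made by the hypodermis, the epidermal tissue meant to be labelled here, while the pharynx makes and sheds a cuticle of its own.

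Gene-level reads ranged from 5040693 in control replicate 2 to 61924868 in hypodermal replicate 1. Over all genes 2.63% to 4.58% of reads carried T>C in controls, the highest being control replicate 2, and 3.35% to 3.76% in the hypodermal libraries. File headers name a flow cell for 5 libraries, and name none for control replicate 1 and hypodermal replicate 1. Sums of markers are given in CPM (reads per 1000000 gene reads of the library) after TMM scaling, a correction for differences in library composition. Markers of the hypodermis (9 of 9 listed genes with reads) summed to 3333 to 4571 CPM in controls and 4554 to 5183 CPM in hypodermal libraries. Of these reads, 1.90% to 2.68% and 2.06% to 2.25% were labelled. Pharynx markers (11 of 11) summed to 1186 to 1332 and 1049 to 1329 CPM, with 2.55% to 3.79% and 4.19% to 4.58% labelled. In other tissues, labelled shares in controls and hypodermal libraries were 2.74% to 6.23% and 4.34% to 5.32% for intestine markers. They were 4.70% to 5.84% and 5.29% to 5.97% for body wall muscle, and 1.85% to 7.91% and 3.76% to 5.32% for neurons. Adult-stage markers (3 of 3) summed to 1480 to 3650 CPM in controls and 1066 to 1757 CPM in hypodermal libraries, with 2 of 3 lower at unadjusted p under 0.05 in edgeR and 0 after adjustment. Of all genes tested, 1.55% were lower at this unadjusted p. Sperm markers (3 of 3) summed to 788 to 1716 and 668 to 968 CPM, and germline markers (3 of 3, with 1 lower at unadjusted p under 0.05) to 1024 to 1543 and 890 to 1159 CPM. The part of these differences in the astacin values was not tested.

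Astacin transcripts together made up a small and even part of the larval RNA. In the controls they took 455, 371, 383 and 394 CPM of gene reads before scaling (replicates 1 to 4 in turn), and in the hypodermal libraries 394, 358 and 402 (replicates 1 to 3 in turn). Between 19 and 25 of the 27 genes had at least 1 read in a given library. Of the 27 genes, 23 had a mean of at least 20 reads over the libraries, the filter for testing. Just inside it lay nas-29 with a mean of 22.6 reads and just outside it nas-33 with 7.14. The genes below the filter were nas-33, nas-21, nas-3 and hch-1.

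Levels of single members, subgroups and lists are likewise given as CPM after TMM scaling. A 3′ end library gives about one counted end per transcript, so CPM is not divided by transcript length. The counted windows differ in length, however, from 10 bases in nas-9 to 515 in nas-4 for genes with a single window, and across the 26 members with a read Spearman's rho between window length and mean CPM was 0.60, a description across genes with shared libraries. Ranks by CPM are therefore given with the rank by CPM per 100 bases of window.

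The most abundant astacin was toh-1 (chromosome III, 3′ UTR window 3804772 to 3805107), which held 22.7% of all astacin reads on average. Its level was 127, 54.8, 112 and 102 CPM in the 4 controls, in order of replicate here and below, and 72.8, 74.4 and 81.1 CPM in the 3 hypodermal libraries. Each hypodermal library lay below 3 controls and above control replicate 2, so the groups overlapped. Per 100 bases of window it ranked second to nas-9, whose window is only 10 bases.

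Next came nas-11 (chromosome X), with 49.2, 82.3, 57.9 and 40.9 CPM in controls and 39.96, 54.9 and 59.001 CPM in hypodermal libraries. Its reads were summed over 2 windows, of which the main one overlaps smf-2 on the opposite strand. Per 100 bases of window it ranked 4. It held 13.8% of astacin reads, and control replicate 2 had the highest level and hypodermal replicate 1 the lowest.

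**Figure D1:**
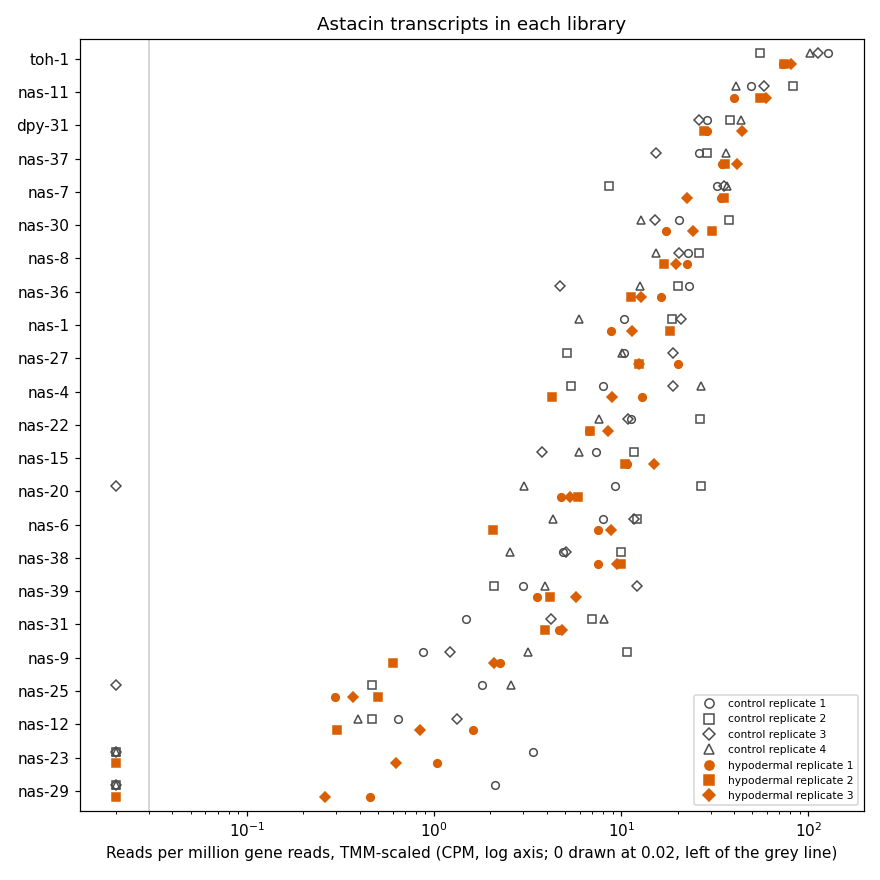
Level of each of the 23 astacin genes past the read filter (rows, by mean level) in each library, in CPM after TMM scaling on a log axis. Open grey symbols are the 4 control libraries and filled orange symbols the 3 hypodermal libraries, and libraries with 0 reads are drawn left of the grey line. The levels run from about 89.1 CPM on average in toh-1 to 0.41 CPM in nas-29, and in every row the symbols of the strains overlap.

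The astacins that act on the body cuticle were all read. dpy-31 encodes the procollagen C-proteinase that trims the cuticle collagen SQT-3, and it is nas-35 by number (chromosome III, 7207430 to 7207664). It had 28.8, 38.003, 26.1 and 43.8 CPM in controls and 28.6, 27.5 and 44.2 CPM in hypodermal libraries. The hypodermal values spanned nearly the range of the controls, and the mean levels were 34.2 ± 8.18 (SD, n = 4) and 33.4 ± 9.31 (SD, n = 3).

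nas-37 is needed for the old body cuticle to be shed (chromosome X, 9944844 to 9945083, a window that overlaps C17G1.5 on the opposite strand). Its level was 26.0, 28.7, 15.3 and 36.1 CPM in controls and 34.7, 35.9 and 41.3 CPM in hypodermal libraries. The hypodermal libraries lay above 3 of the controls, and control replicate 4 lay among them.

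nas-36, which acts with nas-37 at the moult (chromosome I, 7531389 to 7531715), was read at 23.005, 20.1, 4.72 and 12.6 CPM in controls and at 16.4, 11.2 and 12.7 CPM in hypodermal libraries. Control replicate 3 held the lowest value and control replicate 1 the highest, with the hypodermal libraries between them. nas-38, an astacin linked to the sleep-like state of moulting larvae (chromosome X, 563630 to 563657), had 4.86, 10.0, 5.08 and 2.54 CPM in controls and 7.54, 9.93 and 9.43 CPM in hypodermal libraries. Its window is only 28 bases long, and by CPM per 100 bases it ranked 3 against 16 by CPM.

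The astacins of the pharynx, which act where the grinder and its lining are renewed, are nas-6 and nas-7. nas-7 (chromosome II, 7400544 to 7400724, overlapping C07D10.1 on the opposite strand) had 32.6, 8.63, 35.2 and 36.6 CPM in controls and 34.3, 35.5 and 22.5 CPM in hypodermal libraries. Control replicate 2 lay furthest below the rest, and hypodermal replicate 3 was the next lowest at 22.5 CPM. The other controls and hypodermal replicates 1 and 2 spanned 32.6 to 36.6 CPM. Without control replicate 2 the log2 ratio turned from 0.11 to −0.16.

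nas-6 (chromosome IV) had 7.98, 12.1, 11.7 and 4.29 CPM in controls and 7.48, 2.07 and 8.80 CPM in hypodermal libraries when its 10 windows were summed. Of the 10, 9 lie further inside the gene under transcript 4R79.1c, which has no annotated 3′ UTR in WBcel235. The window at the annotated 3′ end (17486871 to 17486981) held 172, 1, 29 and 1 reads in controls and 367, 1 and 31 in hypodermal libraries. Control replicates 2 and 4 and hypodermal replicate 2 thus had 1 read each at that end, in libraries of 5040693, 20058447 and 20317812 reads. The sum over windows does not show this, because reads in the inner windows fill it. A read across the window at the annotated end and the adjoining window may also be counted in each.

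Other members of the upper part of the order have no role named here. nas-30 had 20.4, 37.8, 15.1 and 12.7 CPM in controls and 17.3, 30.6 and 24.1 CPM in hypodermal libraries, and nas-8, whose window overlaps C34D4.10 on the opposite strand, 22.7, 26.1, 20.2 and 15.4 against 22.4, 16.9 and 19.6 CPM. The levels of nas-8 were the most even of the 23 genes, with a coefficient of variation of 17.8% over the 7 libraries. nas-1 had 10.4, 18.7, 20.8 and 5.95 CPM in controls and 8.85, 18.1 and 11.4 in hypodermal libraries, and nas-27 had 10.3, 5.13, 18.9 and 10.1 against 20.0, 12.5 and 12.4 CPM. In this order dpy-31, nas-37 and nas-7 had mean levels between 29.3 and 33.9 CPM with overlapping libraries, so their ranks are not separated by these data, and neither are those of nas-36, nas-1 and nas-27, at 12.8 to 14.4 CPM. Per 100 bases the first 3 of these genes ranked 7, 10 and 5, and the other 3 ranked 15, 12 and 9.

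At the low end, nas-39, of the tolloid and BMP-1 class that in flies and vertebrates releases growth factors and trims collagens, had 2.98, 2.10, 12.1 and 3.90 CPM in controls and 3.55, 4.18 and 5.71 CPM in hypodermal libraries. Its window overlaps F38E9.1 on the same strand, so its reads may be shared. hch-1, the hatching enzyme and nas-34 by number, had 0 reads in each of the 7 libraries, which allows at most 0.0442 CPM in hypodermal replicate 1 and 0.699 CPM in control replicate 2 (3 counts per library, counting error only). nas-23 and nas-29 had reads in control replicate 1, hypodermal replicate 1 and hypodermal replicate 3 and 0 in the other 4 libraries.

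By the numbered subgroups, whose members differ in the domains after the protease, subgroup II (nas-6 to nas-15, often with ShK toxin-like domains) held 31.9% of astacin reads on average, with a range of 27.7% to 34.8% over the libraries. Subgroup V, with thrombospondin repeats and the cuticle and hatching enzymes, held 22.2% (12.9% to 26.9%), and subgroup III (nas-16 to nas-30, with toh-1 kept apart) 14.2% (9.37% to 22.2%). toh-1, which has no nas- number in its symbol and was assigned to no subgroup, held 22.7% (12.6% to 30.8%). The order of the subgroups depends on its placing, since counted with subgroup III it would put that subgroup first on average. Subgroup I held 6.55%, and nas-31 and nas-39, the only members read in subgroups IV and VI, held 1.24% and 1.26%. Summed levels of subgroup V were 82.5 ± 22.1 CPM (SD, n = 4) in controls and 93.2 ± 12.6 CPM (SD, n = 3) in hypodermal libraries, and those of subgroup II 128 ± 19.01 and 122 ± 4.77 CPM. In both cases the difference was smaller than the SD of the controls. Neighbours on chromosome V differed in level: nas-20 and nas-22 had mean levels of 7.84 and 11.2 CPM, while nas-21, which lies between them, had 0.20 CPM.

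**Figure D2:**
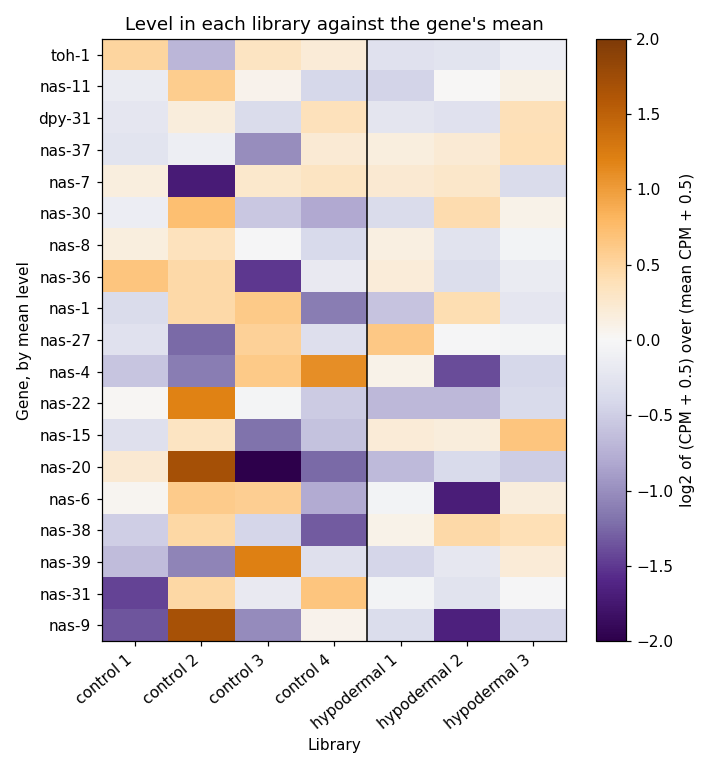
Level of the 19 most abundant astacin genes (rows) in each library (columns), as log2 of CPM plus 0.5 over the gene's mean CPM plus 0.5, with colours limited to the range of −2 to 2. Orange is above and purple below the gene's own mean, and a black line parts the 4 controls from the 3 hypodermal libraries. Control replicate 2 is low in nas-7 (8.63 CPM) and high in nas-20 (26.6 CPM) and nas-9 (10.7 CPM), and the 0 reads of nas-20 in control replicate 3 lie beyond the colour limit.

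The question put to total reads was whether the strains differed in the level of any astacin. Of the 23 genes tested, 0 passed edgeR's quasi-likelihood test at an adjusted p under 0.05 in either direction, and 0 had an unadjusted p under 0.05. Over all 12465 genes tested, 0% passed as higher and 0.016% as lower in the hypodermal strain, and the unadjusted shares were 0.73% higher and 1.55% lower. DESeq2 also called 0 of the 23, with 0 at unadjusted p under 0.05. In 7 of the 23 the log2 ratio was above 0 and in 16 below, against 49.4% above and 50.6% below in all genes, and the median log2 ratio was −0.17 beside −0.01 in all genes. For 0 of the 23 did the groups fail to overlap, where 2.62% of all genes had every hypodermal library above every control and 2.25% every one below.

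The astacins of the moult had log2 ratios of 0.49 (SE 0.34) for nas-37, −0.17 (SE 0.50) for nas-36 and 0.69 (SE 0.54) for nas-38, with dpy-31 at −0.03 (SE 0.33). For toh-1 the log2 ratio was −0.38 (SE 0.32), for nas-11 −0.16 (SE 0.32) and for nas-7 0.11 (SE 0.45). None of these passed the test (edgeR adjusted p = 1.00 for each). The smallest unadjusted p in the family belonged to nas-22, with 11.3, 26.3, 10.9 and 7.61 CPM in controls and 6.76, 6.80 and 8.49 CPM in hypodermal libraries (log2 ratio −0.92, SE 0.50, edgeR adjusted p = 1.00). This gene was chosen after its values were seen, and control replicate 2 is the library furthest from the others.

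The second measure was the labelled share, the part of a gene's reads in a library that the deposited files count as T>C reads. A total of 16 astacins had enough labelled reads to be tested, 10 or more over all libraries, and 7 of the 23 abundant members did not: nas-38, nas-31, nas-39, nas-23, nas-25, nas-12 and nas-29. All reads of the family pooled, 1.87%, 5.24%, 1.07% and 1.86% were labelled in the controls, against 2.85%, 4.12% and 3.59% in the hypodermal strain. Control replicate 2 lay above the hypodermal libraries, and the other controls below them. The labelled reads behind these shares numbered 442, 98, 35 and 147 in controls and 696, 300 and 274 in hypodermal libraries.

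dpy-31 was labelled more in each hypodermal library than in any control. Its labelled share was 0.0605%, 0.613%, 0.463% and 0.668% in control replicates 1 to 4, which is 1 labelled read of 1652, 1 of 163, 1 of 216 and 6 of 898. In the hypodermal libraries it was 1.13%, 4.03% and 3.08%, or 22 of 1945, 22 of 546 and 26 of 843 reads. The mean shares were 0.451% ± 0.275 (SD, n = 4) and 2.75% ± 1.48 (SD, n = 3), a log2 odds ratio of 2.80 (SE 1.39). Of all gene reads, 2.64%, 4.58%, 2.79% and 2.63% were labelled in the controls and 3.35%, 3.57% and 3.76% in the hypodermal libraries. The share of dpy-31 lay below that of all reads in every control and in hypodermal replicates 1 and 3, and above it only in hypodermal replicate 2.

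The unadjusted p of dpy-31 was 0.0444 in edgeR's model fitted over 9821 genes, and it did not pass after adjustment (edgeR adjusted p = 1, and 0.662 to 1 over the alternatives). Over the alternatives its unadjusted p ranged from 0.0231 (edgeR without control replicate 3) to 0.151 (edgeR without control replicate 1). In edgeR it was 0.079 with centring on the odds of all reads and 0.073 with all entries summed. The 95% Wilson interval of control replicate 2, 0.108% to 3.39%, nevertheless covers the whole interval of hypodermal replicate 1, 0.748% to 1.71%, since it rests on 163 reads. Counted in converted Ts instead of reads, 0.0165% ± 0.0101 (n = 4) and 0.100% ± 0.0544 (n = 3) of covered Ts were converted. Among the 5 libraries of the named flow cell the log2 odds ratio was 2.57 (SE 1.68), and in the other 2 libraries the shares were 0.0605% and 1.13%.

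nas-37 had labelled shares of 0.268%, 7.32%, 0% and 0.947% in controls and 4.12%, 3.23% and 6.85% in hypodermal libraries. The 3 hypodermal libraries and control replicate 2 were high, and the other controls lay under 1%. The 7.32% of control replicate 2 came from 9 of 123 reads (95% Wilson interval 3.90% to 13.3%), and the 0 of 126 reads in control replicate 3 allow a share of up to 2.38%. The log2 odds ratio was 2.32 (SE 1.40, edgeR adjusted p = 1), and it was 3.45 (SE 1.48, edgeR adjusted p = 0.575, the lowest over the alternatives) without control replicate 2 and 1.52 (SE 1.43) without control replicate 1.

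The other moulting astacin, nas-36, did not share this order. Its labelled share was 7.05%, 11.6%, 2.56% and 1.55% in controls and 5.22%, 9.42% and 0% in hypodermal libraries, with 0 of 243 reads in hypodermal replicate 3, which allows up to 1.23%. The highest share was in control replicate 2 and the lowest in hypodermal replicate 3. The log2 odds ratio of −0.57 (SE 1.79) turned to 0.62 without hypodermal replicate 3. nas-38 had labelled reads only in hypodermal replicate 2, 6 of 197, and 0 of 279, 43, 42 and 52 reads in controls and 0 of 512 and 180 in the other hypodermal libraries, and it was not tested.

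**Figure D3:**
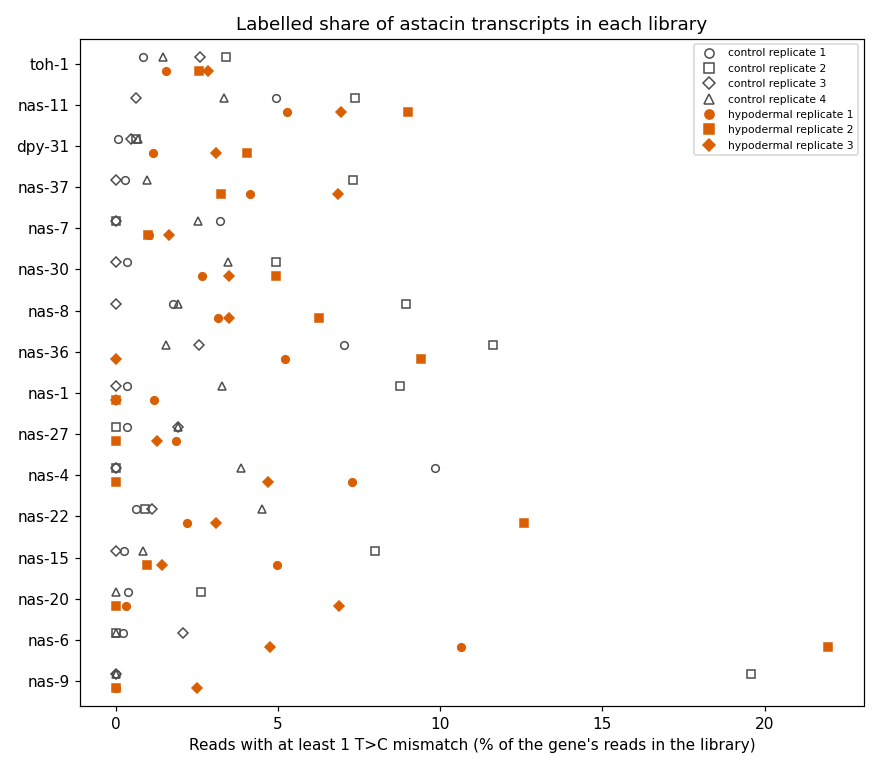
Labelled share of each of the 16 tested astacin genes (rows, by mean level) in each library, as the percent of the gene's reads counted as T>C reads. Open grey symbols are the 4 controls and filled orange symbols the 3 hypodermal libraries. In dpy-31 and nas-6 each hypodermal symbol lies to the right of each control symbol, and in nas-37 control replicate 2, at 7.32%, lies above the hypodermal libraries.

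Of the pharyngeal pair, nas-6 was the other gene whose groups did not overlap in labelled reads. Its labelled shares were 0.218%, 0%, 2.06% and 0% in controls and 10.6%, 21.95% and 4.76% in hypodermal libraries, with a log2 odds ratio of 4.64 (SE 2.15, unadjusted p = 0.0309 and adjusted p = 1 in edgeR). The labelled reads numbered 54 of 508, 9 of 41 and 8 of 168 in hypodermal libraries, and 37 of the 54 in hypodermal replicate 1 lay in the window of the annotated 3′ end. The other 17 lay in the adjoining window from 17486982 to 17487121, with 3 converted Ts beside 34 in the window of the 3′ end. A read across both windows may be counted in each, so the summed counts may not all be distinct reads, which was not tested. In hypodermal replicate 2 all 9 lay in the inner window from 17487396 to 17487551, which held 12 reads and 0 converted Ts, so none of their mismatches was counted in it. With the most-read window alone the log2 odds ratio was 2.96 (SE 2.89), and with converted Ts it was 3.05 (SE 2.34). By converted Ts the groups overlapped, with 0% of covered Ts in hypodermal replicate 2 and 0.0791% in control replicate 3.

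nas-7 had shares of 3.21%, 0%, 0% and 2.53% in controls and 1.03%, 0.994% and 1.63% in hypodermal libraries. The 0 of 37 reads in control replicate 2 allow a share of up to 8.11%, and the 0 of 291 in control replicate 3 up to 1.03%. The hypodermal shares lay between the controls, and the log2 odds ratio was −0.18 (SE 1.50). In limma on log2 odds it was 0.08.

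The abundant toh-1, the member with the most reads, had shares of 0.837%, 3.40%, 2.60% and 1.43% in controls and 1.54%, 2.57% and 2.84% in hypodermal libraries. Its groups overlapped throughout, and the log2 odds ratio was 0.36 (SE 0.86, edgeR adjusted p = 1).

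For nas-11 the shares were 4.93%, 7.37%, 0.628% and 3.34% in controls and 5.27%, 8.99% and 6.93% in hypodermal libraries, a log2 odds ratio of 1.09 (SE 1.06). Here reads with T>C and converted Ts part ways. In hypodermal replicate 1 the main window (6716193 to 6716322) held 143 reads with T>C but 1 converted T, and the window after it (6716321 to 6716381) held 143 reads with T>C and 142 converted Ts. In control replicate 1 these numbers were 139 and 62 in the main window and 138 and 77 in the next. The windows overlap at their ends, and their numbers of T>C reads were nearly equal. By converted Ts the log2 odds ratio of nas-11 was −1.65 (SE 1.64), the opposite sign.

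Other tested members of the 10 most abundant were spread in the same way. nas-30 had 0.341%, 4.94%, 0% and 3.46% in controls and 2.64%, 4.93% and 3.49% in hypodermal libraries, and nas-8 had 1.77%, 8.93%, 0% and 1.90% against 3.16%, 6.27% and 3.48%. In both, control replicate 3 had 0 labelled reads and control replicate 2 was at or above the highest hypodermal library. nas-1 had 0.336%, 8.75%, 0% and 3.28% in controls and 1.16%, 0% and 0% in hypodermal libraries, and nas-27 had 0.338%, 0%, 1.92% and 1.92% against 1.84%, 0% and 1.27%. Their log2 odds ratios were 1.39 (SE 1.50), 1.07 (SE 1.50), −2.30 (SE 2.07) and −0.23 (SE 2.02) in turn, and none passed the test. The 0% of nas-27 in control replicate 2 came from 22 reads, which allow a share of up to 13.6%.

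Across the family, 0 of the 16 genes passed edgeR's test of labelling in either direction, where 0% of the 9821 genes tested passed as higher and 0% as lower. At unadjusted p under 0.05, 2 of the 16 were higher (dpy-31 and nas-6) and 0 lower, beside 2.86% higher and 0.407% lower of all genes. In limma on log2 odds 0 passed, with an unadjusted p under 0.05 for 2 higher and 0 lower. Over all alternatives these unadjusted counts ranged from 0 to 2 higher. They were 1 higher with converted Ts, with centring on all reads or with all entries summed, 0 without control replicate 1, without hypodermal replicate 2 or with the replicate block, and 0 higher and 1 lower among the flow cell libraries. The 1 gene was dpy-31 with converted Ts, and nas-6 with centring or with all entries summed. Without control replicate 2 the 2 genes were dpy-31 and nas-37. dpy-31 and nas-6 were also the 2 genes with every hypodermal library above every control, which held for 5.52% of all genes, and 0 had every hypodermal library below, beside 0.346%. The median log2 odds ratio was 0.68 in the 16 and 0.54 in all genes, and 11 of 16 lay above 0 and 5 below, where all genes had 70% above and 30% below. With converted Ts the family's median was 0.27, with 9 above and 7 below, beside 0.52 in all genes. The authors' deposited table names 198 genes, beside 27909 genes with an entry, and holds 0 of the astacins. Its adjusted p-values reach 0.09998, so its threshold is looser than the 0.05 used here. The name of that table states a T>C minimum other than the 10 T>C reads used here, and its test may differ.

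**Figure D4:**
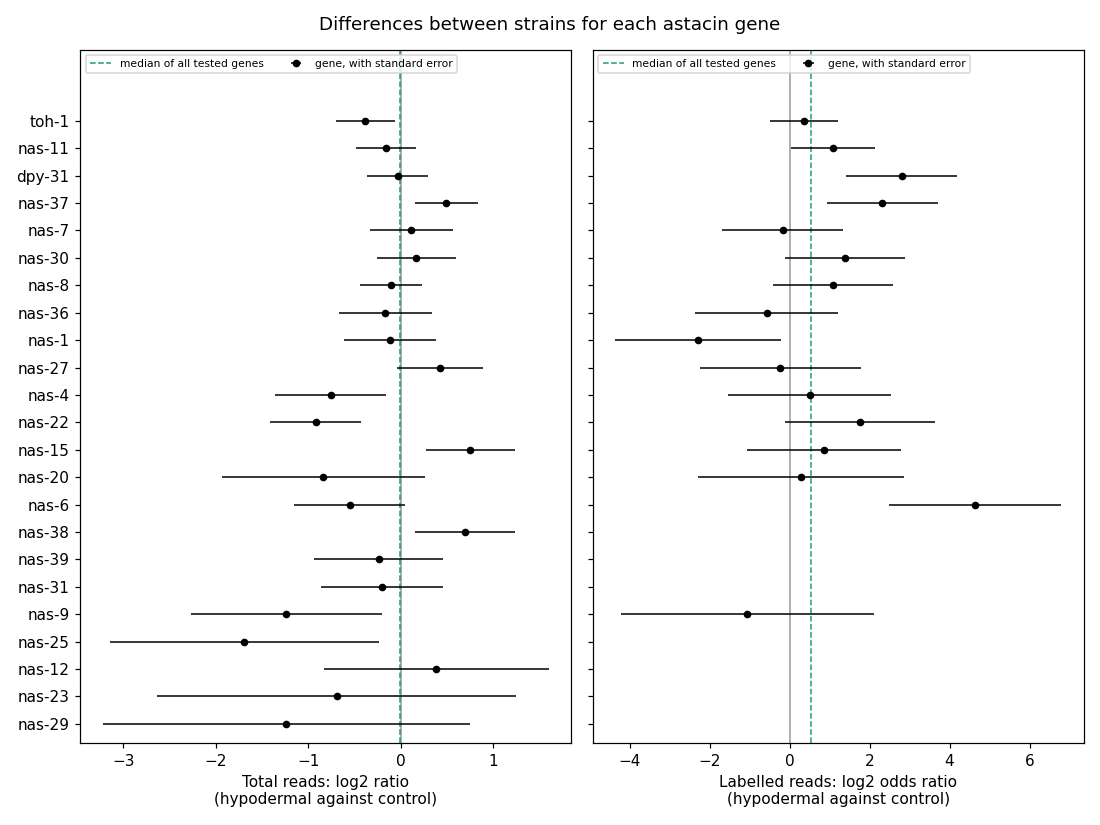
Differences between the strains for each of the 23 astacin genes past the read filter (rows, by mean level), with the log2 ratio of total reads on the left and the log2 odds ratio of labelled reads on the right, both hypodermal against control. Points are edgeR estimates, bars are standard errors, and the dashed line is the median of all tested genes (−0.01 and 0.54). The longest bar of labelling belongs to nas-9 (SE 3.16), and dpy-31 (2.80), nas-37 (2.32) and nas-6 (4.64) lie furthest to the right.

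In single libraries the spread of labelled shares between members was wide. In control replicate 3, 8 of the 16 tested genes had reads of which 0 were labelled, beside 46.3% of all tested genes, and the highest share was 2.60% in toh-1. In control replicate 2, 4 had 0, beside 26.5%, and the highest was 19.6% in nas-9, from 9 of 46 reads. In the hypodermal libraries 1, 5 and 2 of the 16 had 0, beside 6.01%, 21.2% and 12.3%, and the highest shares were 10.6% in nas-6, 21.95% in nas-6 and 6.93% in nas-11. The genes above their library's own share numbered 4, 8, 0 and 5 of 16 in controls and 6, 7 and 5 in hypodermal libraries, where the corresponding percentages of all tested genes were 30.4%, 35.3%, 18.9% and 36.5%, and 37.7%, 35.7% and 37.9%.

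The partners of the astacins in cuticle making were read in the same libraries, from a list of 43 other proteases, inhibitors, substrates and moulting genes. Of the 42 tested for total reads 0 passed in edgeR in either direction. At unadjusted p under 0.05 there were 1 higher and 0 lower, beside 0.73% and 1.55% of all genes. Of the 39 tested for labelling 0 passed, and 0 had an unadjusted p under 0.05, beside 2.86% higher and 0.407% lower of all genes. The median log2 ratio of total reads was 0.34 in the list and −0.01 in all genes, with 28 of 42 above 0 beside 49.4% of all genes. The median log2 odds ratio of labelling was 0.21 beside 0.54, with 23 of 39 above 0 beside 70% of all genes.

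sqt-3, the collagen that DPY-31 trims, had 704, 512, 616 and 1010 CPM in controls and 935, 1004 and 1104 CPM in hypodermal libraries. The hypodermal libraries lay above 3 of the 4 controls (log2 ratio 0.51, SE 0.28), while its enzyme dpy-31 lay at −0.03. Labelled shares of sqt-3 were 1.76% ± 0.496 (SD, n = 4) and 2.08% ± 0.411 (SD, n = 3), a log2 odds ratio of 0.27 (SE 0.35).

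The gene with the unadjusted p under 0.05 was mlt-11, which encodes a large protein with Kunitz-type protease inhibitor domains that is needed for moulting. It had 14.8, 12.8, 5.45 and 10.5 CPM in controls and 35.8, 16.6 and 23.8 CPM in hypodermal libraries, so that each hypodermal library lay above each control (log2 ratio 1.22, SE 0.43, edgeR adjusted p = 1.00). Every hypodermal library above every control in total reads held for 2.62% of all genes tested. In the list it also held for dpy-17, nekl-2 and cpz-1. For dpy-17 the gap was narrow, with 3.51 CPM in the highest control and 3.58 CPM in the lowest hypodermal library. A further Kunitz-type inhibitor gene, bli-5, had mean levels of 5.87 ± 4.71 and 12.0 ± 2.58 CPM, and the moulting gene mlt-10 88.4 ± 19.9 and 99.6 ± 14.5 CPM. The procollagen-processing furin gene bli-4 had 151 ± 20.9 and 147 ± 36.1 CPM, the ADAMTS protease gene adt-2 31.5 ± 9.81 and 20.1 ± 6.60 CPM, and the collagen gene dpy-17 2.03 ± 1.59 and 6.18 ± 3.27 CPM (n = 4 and n = 3). None of these passed the test in either measure.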

How the data were processed

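The authors' deposited counts per library, made with slamdunk 0.4.3 per the file headers, give for 47039 3′ UTR entries the reads, reads with T>C, covered Ts and converted Ts. The deposited fraction is converted over covered Ts. The deposited score, ReadsCPM, was used only to back-calculate mapped reads. The authors' deposited table gives p-values and adjusted p-values for 198 genes, and its 21 columns of per-library values were not used. The build ce10 and DESeq2 are named in the submitters' processing notes. The file headers name a WBcel235 annotation, and 98.2% of 14085 kept entries had the stop-codon side of WBcel235, so coordinates are for WBcel235. No source used here gives the T>C threshold per read or the strand setting. The multimapping column is 0 throughout.

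Entries were joined to genes by transcript or sequence name (21 entries with 0.00444% of reads had no gene), the most-read entry of each overlapping group was kept, and groups were summed per gene. The family's 43 entries became 37. Total reads were tested with the quasi-likelihood test of edgeR 4.0.16 (R 4.3.3) after TMM scaling (mean of 20 or more reads), with DESeq2 1.42.0 as an alternative. Labelling was tested in edgeR on reads with and without T>C per library, with a term per library and a term for labelled reads (also 10 or more T>C reads in total), with limma 3.58.1 as an alternative (0.5 added to each count). All tests were two-sided over all genes, with Benjamini-Hochberg adjustment at 0.05. Only the main edgeR fits were also run on simulated counts. There the labelled share of a gene varied within a strain by counting error alone, so that run does not show how the labelling test behaves at the spread seen here. Standard errors are the log2 estimate over the root of F. Wilson intervals (95%) and limits for 0 counts (3 counts) cover counting error only. Per-library values are given for the 10 most abundant members and for nas-6, nas-7, nas-36 to nas-39, dpy-31, hch-1 and toh-1. Members, subgroups and lists were chosen with earlier results of these data known. Same-numbered libraries had correlated deviations in 2 of 3 pairs (0.459, 0.215 and −0.066), so numbers were not taken to pair them. Python 3.11.15, pandas 2.3.3, NumPy 2.4.6, SciPy 1.17.1 and matplotlib 3.10.9 were also used.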

Additional observations from a re-analysis of the deposited data

Results flagged for a closer look

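Of 39 groups of control values (23 for levels, 16 for labelled shares), the labelled share of nas-20 was left out, because control replicate 3 had 0 reads of it. In the groups of 4 values, a single library stood apart from the other 3 in 8 cases, by a gap above Dixon's 95% critical value. Chance alone flags about 1 in 20 such groups only where values are normally distributed, which shares and levels bounded at 0 need not be. Where the other 3 controls are at 0, as in nas-9, nas-23 and nas-29, any value above 0 is flagged. The number of flags therefore cannot be set against that rate. In 4 of the 8 the library was control replicate 2, the one with the fewest reads: nas-37 with 7.32% labelled reads against 0% to 0.947% in the other controls, nas-15 with 8.0% against 0% to 0.820%, nas-9 with 19.6% against 0% in each, and nas-7 with a level of 8.63 CPM against 32.6 to 36.6 CPM. Control replicate 1 stood apart in nas-23, at 3.38 CPM, and in nas-29, at 2.13 CPM, each with 0 reads in the other controls. Control replicate 4 had 4.49% labelled reads in nas-22 against 0.615% to 1.11%. Control replicate 3 had 2.06% in nas-6 against 0% to 0.218%, from 2 of 97 reads.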

How the results depend on the processing

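Under each alternative run, 0 astacins passed the adjusted threshold in total reads or in labelling, so no call was lost or gained. Over all genes, total reads gave 0 higher and 2 lower, and DESeq2 9 and 15. Labelling gave 0 calls, but 20 higher without control replicate 2 and 1 higher without control replicate 4. The median log2 odds ratio of all genes moved from 0.54 to 0.31 when libraries were centred on the odds of all reads, and to 0.85 without control replicate 2, while the family's moved from 0.68 to 0.45 and to 1.52. The fit with the replicate block holds replicates 1 to 3 only and so also leaves out control replicate 4. In it the median of total reads of all genes was 0.12, beside −0.01. Labelled reads of nas-11 turned to −1.65 with converted Ts, which in hypodermal replicates 1 and 2 stand almost wholly in the neighbouring window. Labelled reads of nas-27 turned to 0.87 with converted Ts and to 0.87 with the replicate block, and those of nas-7 to 0.084 in limma, 0.81 with the replicate block and 0.75 in the flow cell libraries. Total reads of dpy-31 turned to 0.027 without TMM scaling and 0.094 with the replicate block, those of nas-39 to 0.034 with the replicate block, and those of nas-6 to 0.46 with the most-read window alone, an alternative chosen after seeing the data. The cause of these reversals was not tested. With the replicate block the family's median log2 ratio was 0.03 in total reads and 1.06 in labelling, and no call changed. Without control replicate 4 and with no block, total reads were at 0.11 for dpy-31 and −0.36 for nas-39, and labelling was at 0.23 for nas-27 and 0.48 for nas-7. Leaving out 1 library at a time, the log2 values ranged over 0 in total reads for nas-11 (−0.30 to 0.073), dpy-31 (−0.28 to 0.11), nas-7 (−0.16 to 0.29), nas-30 (−0.049 to 0.59), nas-8 (−0.23 to 0.028), nas-36 (−0.48 to 0.085), nas-1 (−0.45 to 0.13) and nas-39 (−0.47 to 0.56). In labelling they ranged over 0 for toh-1 (−0.030 to 0.64), nas-7 (−0.96 to 0.57), nas-36 (−1.77 to 0.62) and nas-27 (−1.06 to 0.59). Those of dpy-31 (2.04 to 3.34), nas-37 (1.52 to 3.45) and nas-6 (4.03 to 5.98) kept their sign. Depth limits the labelled shares: control replicate 2 had 163 reads of dpy-31 and 52 of nas-6, and 0 labelled reads of 52 still allow a share of up to 5.77%.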
